A study of Mus musculus with 6 samples.

Results

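Neuropeptide precursor genes were examined in RNA sequencing of whole brainstems from mice with and without an intact Rag1 gene. The 38 members were the rows of the deposited table whose symbol is in a list of genes for classical neuropeptides, hypothalamic peptides and granins. All 38 were in the table of 18058 genes. Of these, 35 reached a mean of 0.1 CPM (read counts scaled to library size, the deposited unit) and were among the 16762 genes tested, while Nmu, Nms and Prlh did not. The study used 3 C57BL/6J mice (wild type, WT) and 3 Rag1-/- mice, all 1 month of age, naive and without implanted cells, and each library came from the snap-frozen brainstem of a separate animal. Rag1 encodes a subunit of the recombinase that rearranges antigen receptor genes, and animals without it form no mature T or B cells. The comparison asks which brainstem transcripts differ in a host that accepts glioma explants. Values are given in the order of replicates 1, 2 and 3 of each genotype.

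Neuropeptides are short signalling peptides that neurons release beside their fast transmitters. They are made as long precursors, packed into dense-core vesicles, cut by proprotein convertases, trimmed by carboxypeptidases and often amidated, and they act on G protein-coupled receptors. The brainstem holds many peptide cells, such as enkephalin and substance P neurons of sensory and autonomic relays, urocortin neurons of the Edinger-Westphal nucleus and the glucagon-like peptide 1 neurons of the solitary tract nucleus. The cell bodies that make vasopressin, oxytocin, orexin and melanin-concentrating hormone lie mainly in the hypothalamus. Granins are acidic proteins of dense-core vesicles found in most peptide-secreting cells, and several are cut into peptides themselves.

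Promoter windows of 300 bases around the RefSeq start (GRCm38.p6, the same primary assembly as mm10) were matched for 31 of the 38 genes, with 33 windows in all. The cAMP response element with the letters TGACGTCA, which reads the same on both strands, was found in 5 of these windows, those of Cartpt, Chgb, Scg2, Sst and Ucn, and in 1.79% of the 32851 windows of all genes. A TATA box with the letters TATAAA on either strand was found in 9 of the 33 and in 13.6% of all windows. These matches are descriptions of letters and were not tested. The windows shown belong to genes on which the results below turn, Scg2 (chr1:79439977-79440276, minus strand), Ucn (chr5:31138846-31139145, minus strand), Avp (chr2:130582539-130582838, minus strand) and Oxt (chr2:130575919-130576218, plus strand), with Sst (chr16:23890795-23891094, minus strand) as the best known gene with this element. Capitals mark the element, which begins at position -68 from the start in Scg2, -48 in Sst and -44 in Ucn. Vgf, also central below, was not among the windows used here.
Scg2 promoter: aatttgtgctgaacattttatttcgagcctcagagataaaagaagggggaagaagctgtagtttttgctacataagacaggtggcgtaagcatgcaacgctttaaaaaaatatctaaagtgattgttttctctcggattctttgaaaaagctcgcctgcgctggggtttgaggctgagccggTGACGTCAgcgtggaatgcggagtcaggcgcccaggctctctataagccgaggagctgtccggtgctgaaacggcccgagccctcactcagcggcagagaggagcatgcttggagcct
Sst promoter: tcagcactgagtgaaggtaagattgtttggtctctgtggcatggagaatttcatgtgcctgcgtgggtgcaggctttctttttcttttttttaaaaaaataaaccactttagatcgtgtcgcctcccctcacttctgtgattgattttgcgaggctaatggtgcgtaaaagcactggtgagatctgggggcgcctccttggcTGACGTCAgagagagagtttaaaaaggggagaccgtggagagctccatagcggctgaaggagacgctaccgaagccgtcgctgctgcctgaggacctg
Ucn promoter: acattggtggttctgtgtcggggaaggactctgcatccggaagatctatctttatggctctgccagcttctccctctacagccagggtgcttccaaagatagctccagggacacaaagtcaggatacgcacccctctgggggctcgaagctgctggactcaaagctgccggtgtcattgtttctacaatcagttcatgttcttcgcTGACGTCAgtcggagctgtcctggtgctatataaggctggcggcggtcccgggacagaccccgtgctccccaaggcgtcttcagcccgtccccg
Avp promoter: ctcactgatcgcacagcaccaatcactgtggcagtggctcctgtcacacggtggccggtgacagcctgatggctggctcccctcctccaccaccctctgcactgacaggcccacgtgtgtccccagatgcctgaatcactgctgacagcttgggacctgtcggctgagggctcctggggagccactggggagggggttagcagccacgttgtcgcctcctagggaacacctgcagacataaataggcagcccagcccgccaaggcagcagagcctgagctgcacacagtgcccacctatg
Oxt promoter: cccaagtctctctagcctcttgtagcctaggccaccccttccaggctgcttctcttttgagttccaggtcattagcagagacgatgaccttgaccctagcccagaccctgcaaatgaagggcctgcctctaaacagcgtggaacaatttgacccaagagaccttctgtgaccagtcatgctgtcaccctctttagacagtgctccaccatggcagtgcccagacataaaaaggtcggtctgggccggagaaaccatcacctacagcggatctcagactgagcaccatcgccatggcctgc

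Before the members, the labels were checked. Rag1 transcripts were at 0.115 to 0.388 CPM in WT libraries and at 2.60 to 4.02 CPM in those labelled Rag1-/-, so that they were higher where the gene is labelled as disrupted, and every direction below rests on the labels. Xist was at 172 to 177 CPM in WT replicates 1 and 2 and at 0.462 to 2.93 CPM in the other 4 libraries. Ddx3y of the Y chromosome was at 0.215 to 0.283 CPM in those 2 WT libraries and at 45.2 to 56.2 CPM in the others. The labels do not give the sex of the animals. Among the WT libraries only replicate 3 had the pattern of those labelled Rag1-/-. Genotype and this split therefore overlap and cannot be fully told apart, and they coincide in fits without WT replicate 3. Depth, estimated from the value of 1 read, ranged from 34800000 to 46400000 reads in WT and from 31600000 to 35100000 reads in the libraries labelled Rag1-/-. A level of 3 reads, the floor used here, equals 0.0646 to 0.0862 CPM and 0.0854 to 0.0950 CPM, and it covers counting error only.

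WT replicate 3 stood apart in markers of neighbouring regions. It was the highest library for 9 of 9 pituitary markers in the table, 11 of 12 hypothalamic markers and 9 of 9 cerebellar markers. Their summed levels were 3.59, 57.6 and 660 CPM in WT and 2.83 to 5.64 CPM in those labelled Rag1-/- for the pituitary list, 3.59, 7.58 and 22.7 CPM against 3.76 to 5.95 CPM for the hypothalamic list, and 243, 224 and 798 CPM against 185, 349 and 212 CPM for the cerebellar list. The pituitary genes Gh and Pomc reached 381 and 246 CPM in WT replicate 3, whereas Fshb was at the table's minimum in the other 5 libraries. Brainstem neuron markers (Hox genes, Slc6a5, Tph2, Chat and Dbh) were at or above the floor in all 6 libraries, and their sum was 87.4, 122 and 57.7 CPM in WT and 159, 53.8 and 100.3 CPM in those labelled Rag1-/-. Hoxa5, which marks the caudal hindbrain, was at 5.05, 7.30 and 2.04 CPM in WT libraries and at 9.93, 0.349 and 7.43 CPM in those labelled Rag1-/-, so that replicate 2 with that label was the lowest. Fold changes and counts that turn on these libraries are also given without them below.

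Levels of the peptide genes spanned several orders of magnitude. Per kilobase of transcript, the highest means of the 6 libraries were those of Chga at 139 and Cck at 138 CPM per kb, followed by Scg2 at 119, Sst at 105, Scg5 at 104, Chgb at 89.9, Vgf at 87.9, Scg3 at 80.6, Pmch at 50.9 and Penk at 43.3 CPM per kb. All 6 granins were therefore among the 10 most abundant members on this scale, with Cck, Sst, Pmch and Penk as the classical peptides. Chga and Cck had nearly the same mean level on it, but the SD of log2(CPM + 0.1) within genotype was 0.07 for Chga and 0.30 for Cck. Not scaled to length, 29 of the 38 members had a mean of at least 1 CPM.

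**Figure D1:**
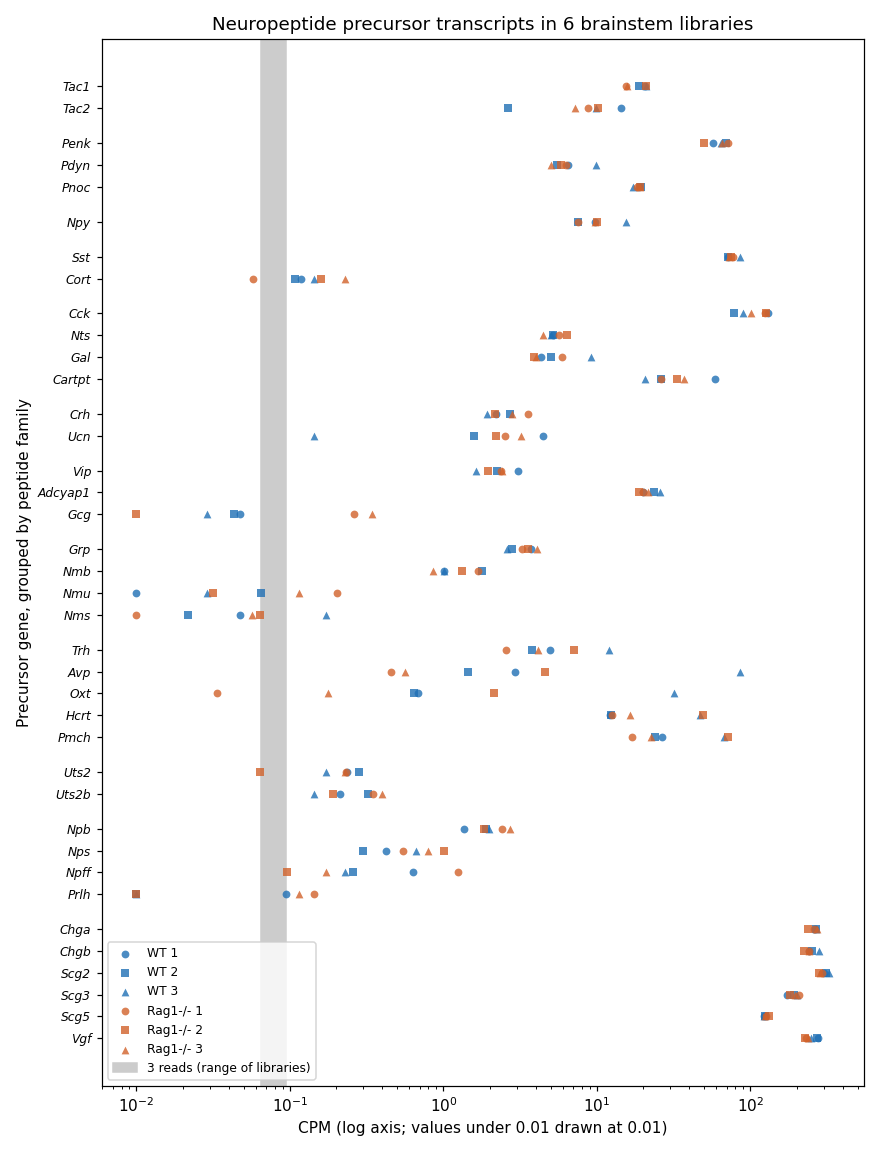
CPM of each member (rows, grouped by peptide family) in the 6 libraries on a log axis, blue for WT and orange for the libraries labelled Rag1-/-, with the grey band at the level of 3 reads. Granins lie in tight clusters above 100 CPM, while Avp, Oxt, Ucn, Hcrt and Pmch are spread widely among libraries of the same genotype.

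No member passed an adjusted p of 0.05 in the comparison of genotypes by limma-trend, in which 8 of all tested genes (0.0477%) did. The smallest adjusted p among the members was 0.335. At an unadjusted p of at most 0.05, 2 of 35 members were lower in the libraries labelled Rag1-/-, against 9.29% of all tested genes, and 0 were higher, against 2.27%. The 2 genes were Vgf and Scg2, both granins, and they were also the 2 members whose values were lower in each of the libraries labelled Rag1-/- than in all WT libraries, as were 14.4% of all tested genes. No member was higher in every library labelled Rag1-/-, against 3.98% of all tested genes. In direction the members were divided, with 18 log2 fold changes below 0 and 17 above, and their median was -0.0017 while that of all tested genes was -0.051. Scaling bears on these counts. Among all genes that reached this unadjusted p, 80.4% were lower in the main fit, 42.8% after quantile normalization and 45.0% after median-of-ratios rescaling. With these scalings the members with such a p were Vgf and Scg2 (lower) with Npb and Nps (higher), and Vgf (lower) with Nps and Scg5 (higher), and with median-of-ratios rescaling no member was lower in every library labelled Rag1-/-, against 7.37% of all tested genes. The number of members with an unadjusted p of at most 0.05 also moved with single libraries. Without WT replicate 1 it was 4 lower (Adcyap1, Chgb, Scg2 and Vgf) and 4 higher (Cartpt, Cck, Grp and Ucn), against 7.09% and 1.7% of all tested genes in that fit. Without WT replicate 2 it was 5 lower (Avp, Pdyn, Scg2, Tac2 and Vgf) and 0 higher (9.73% and 2.35%). Without replicate 2 labelled Rag1-/- it was 4 lower (Avp, Oxt, Tac1 and Vgf) and 3 higher (Crh, Gcg and Npb), against 8.23% and 2.04%, and without replicate 3 labelled Rag1-/- 1 lower and 0 higher (7.53% and 2.29%). No member had an adjusted p under 0.05 in any of the fits that left out 1 library.

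**Figure D2:**
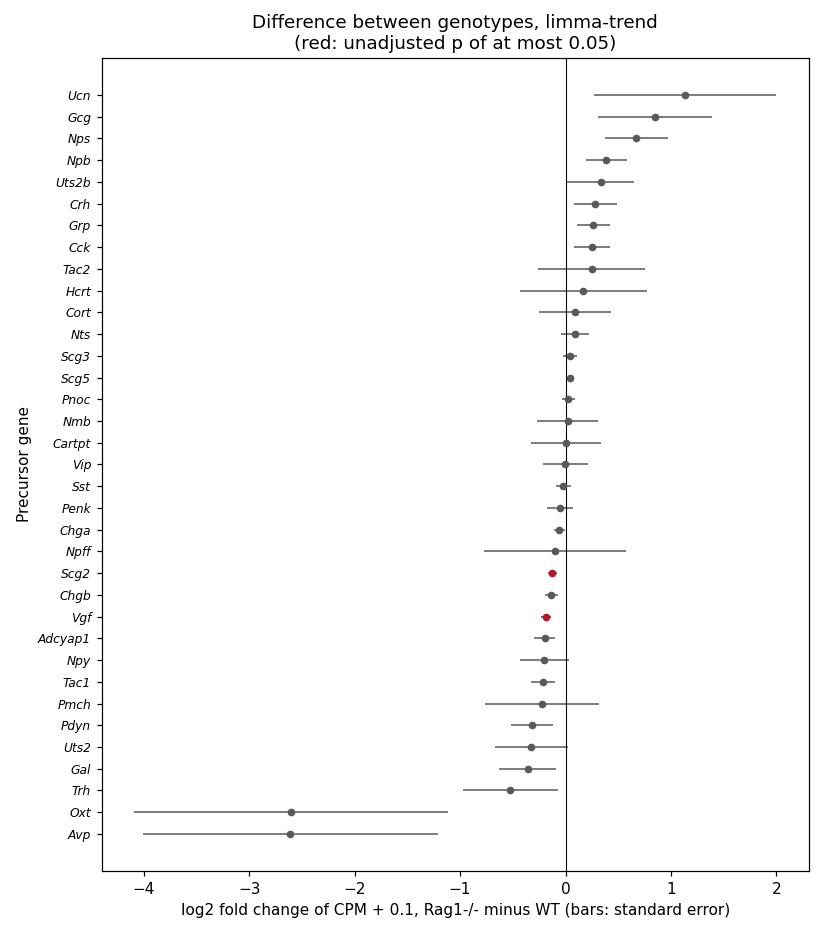
Log2 fold change of CPM + 0.1 (libraries labelled Rag1-/- minus WT) of the 35 tested members, sorted, with bars of 1 standard error from limma-trend and red for an unadjusted p of at most 0.05. Vgf and Scg2 have small differences with short bars, and Avp, Oxt and Ucn have the largest differences with the longest bars.

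Among the granins, Vgf and Scg2 were lower in the libraries labelled Rag1-/- at an unadjusted p of at most 0.05, and the other 4 did not pass. Vgf encodes a neuronal granin that is induced by neurotrophins and cut into several bioactive peptides. It was at 276, 273 and 247 CPM in WT libraries and at 232, 228 and 239 CPM in those labelled Rag1-/-. The lowest WT library, replicate 3, lay just above the highest library labelled Rag1-/-, so that the groups did not overlap. The means were 265 ± 15.7 and 233 ± 5.39 CPM (SD, n = 3 each), a log2 fold change of -0.18 (standard error 0.05, unadjusted p = 0.00596, adjusted p = 0.335 by limma-trend). Scg2, the precursor of secretoneurin, was at 301, 312 and 325 CPM in WT libraries and at 293, 282 and 283 CPM in those labelled Rag1-/-. Here WT replicate 1 and replicate 1 labelled Rag1-/- were nearest to each other. The means were 313 ± 12.05 and 286 ± 6.27 CPM (SD, n = 3 each), and the log2 fold change was -0.13 (standard error 0.04, unadjusted p = 0.0177, adjusted p = 0.372 by limma-trend). A two-sided exact permutation test of the 6 values gave 0.1 as the p of both genes, which is the least that 3 animals per group can reach. The p of Scg2 was above 0.05 with median-of-ratios rescaling (0.0998), without WT replicate 3 (0.0531), without replicate 2 labelled Rag1-/- (0.0549) and without replicate 3 labelled Rag1-/- (0.0529). That of Vgf stayed at or under 0.0279 with each scaling and each library left out, and was 0.152 with a term for the 2 libraries with high Xist.

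The other granins did not pass. Chgb, a core protein of chromaffin and neuronal granules, was nearest, at 241, 254 and 279 CPM in WT libraries and at 241, 223 and 240 CPM in those labelled Rag1-/- (log2 fold change -0.13, standard error 0.06, unadjusted p = 0.0553 by limma-trend, adjusted p = 0.441). Its log2 fold change was -0.18 (unadjusted p = 0.01997 by limma-trend) without WT replicate 1 and -0.08 (unadjusted p = 0.178) without WT replicate 3. The groups overlapped, since WT replicate 1 was under replicate 1 labelled Rag1-/-. Chga, which promotes granule formation, was at 264, 269 and 269 CPM and at 258, 239 and 272 CPM, and overlapped likewise. Scg3, which binds Chga to the granule membrane, was at 174, 192 and 201 CPM in WT libraries and at 208, 181 and 196 CPM in those labelled Rag1-/-. Scg5, the chaperone of the convertase Pcsk2, was the steadiest member at 124, 125 and 124 CPM against 127, 132 and 125 CPM. Its highest library was 1.07 times the lowest. Summed over the 6 genes, granin levels were 1379, 1425 and 1445 CPM in WT and 1361, 1286 and 1355 CPM in those labelled Rag1-/-. In bulk tissue, fewer cells that express a gene and less RNA per cell cannot be told apart.

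**Figure D3:**
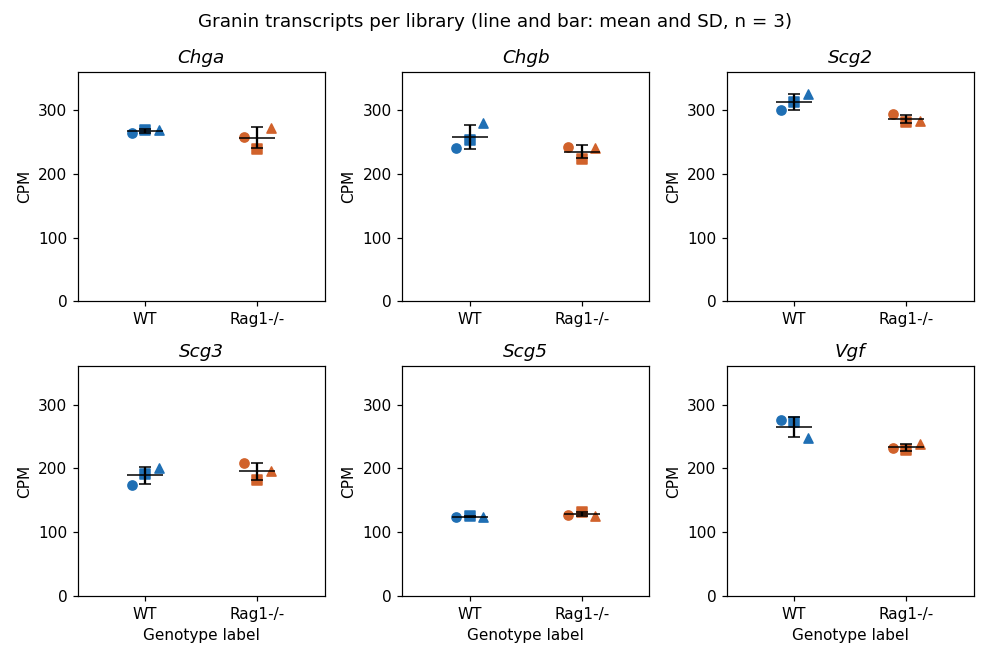
CPM of the 6 granin genes in each library (circles, squares and triangles for replicates 1, 2 and 3), with the mean as a line and the SD as a bar (n = 3 mice per genotype). Vgf and Scg2 are the 2 genes with no overlap between the genotypes, and Scg5 varies least.

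No tachykinin, opioid or other widespread peptide gene passed the test in either direction. Tac1, the precursor of substance P and neurokinin A, was at 20.48, 18.7 and 21.0 CPM in WT libraries and at 15.5, 20.9 and 15.8 CPM in those labelled Rag1-/-. Replicate 2 with that label was at the WT level while replicates 1 and 3 were lower (log2 fold change -0.22, standard error 0.11, unadjusted p = 0.0879 by limma-trend). Without that library, a fit picked after its value was seen, the log2 fold change of Tac1 was -0.36 with unadjusted p = 0.00165 (adjusted p = 0.453 by limma-trend). Without WT replicate 1 it was -0.20 (unadjusted p = 0.169 by limma-trend). Tac2, which encodes neurokinin B, was at 14.3, 2.65 and 9.80 CPM in WT libraries and at 8.72, 10.1 and 7.17 CPM in those labelled Rag1-/-, with WT replicate 2 far under the rest. Penk, the precursor of the enkephalins, was the most abundant opioid gene at 57.5, 69.0 and 64.2 CPM and at 71.0, 49.7 and 65.0 CPM. Its groups overlapped fully. Pnoc, the precursor of nociceptin, stayed between 17.2 and 19.4 CPM in all 6 libraries, and Pdyn, the precursor of the dynorphins, between 5.01 and 9.94 CPM with WT replicate 3 the highest.

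Npy, a peptide of catecholamine neurons and interneurons, was at 9.70, 7.52 and 15.4 CPM in WT libraries and at 7.54, 9.95 and 9.79 CPM in those labelled Rag1-/-. Sst, which encodes the inhibitory peptide somatostatin, was at 71.9, 71.8 and 85.6 CPM and at 77.4, 75.2 and 72.9 CPM, and its log2 fold change of -0.02 (standard error 0.07) was below the spread between libraries. The sign of Sst turned positive with both other scalings and without WT replicate 3, which was its highest library. Cort, the related cortistatin gene, was low at 0.0579 to 0.228 CPM, with 1 library under the floor.

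Cck encodes cholecystokinin, a peptide co-released by many glutamate and dopamine neurons, and was at 131, 78.4 and 90.2 CPM in WT libraries and at 124, 126 and 101 CPM in those labelled Rag1-/-. The WT libraries contained both its highest and its lowest value (log2 fold change 0.25, standard error 0.17, unadjusted p = 0.176 by limma-trend). Without WT replicate 1, its highest library, the log2 fold change of Cck was 0.47 with unadjusted p = 0.00222 (adjusted p = 0.443 by limma-trend). That fit was picked after the values were seen, and the WT values left in it lie under all of those labelled Rag1-/-. Cartpt, the CART precursor, ranged from 20.6 to 58.8 CPM, with WT replicate 1 as the highest and WT replicate 3 as the lowest. Nts (neurotensin) ranged from 4.44 to 6.37 CPM and Gal (galanin) from 3.90 to 9.17 CPM, the latter highest in WT replicate 3. The log2 fold change of Gal was -0.36, and it was -0.04 without that library.

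In the CRF family, Crh, the precursor of corticotropin-releasing hormone and present in Barrington's nucleus, was at 2.19, 2.74 and 1.93 CPM in WT libraries and at 3.55, 2.15 and 2.79 CPM in those labelled Rag1-/-. Ucn, which encodes urocortin, was at 4.48, 1.59 and 0.144 CPM in WT libraries and at 2.51, 2.22 and 3.22 CPM in those labelled Rag1-/-. Both its highest and its lowest value were in WT, and WT replicate 1 was 31.2 times WT replicate 3. The log2 fold change of Ucn was 1.14 (standard error 0.86, unadjusted p = 0.223 by limma-trend). It was -0.04 without WT replicate 3, the library with the highest hypothalamic, pituitary and cerebellar marker sums. With the term for high Xist, which sets the libraries labelled Rag1-/- against WT replicate 3 alone, it was 3.48.

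Of the secretin family, Adcyap1, the precursor of PACAP, was at 20.0, 23.7 and 25.95 CPM in WT libraries and at 20.1, 18.7 and 21.6 CPM in those labelled Rag1-/-, a log2 fold change of -0.20 (standard error 0.10, unadjusted p = 0.0751 by limma-trend). Without WT replicate 1 it was -0.30 (unadjusted p = 0.00642, adjusted p = 0.4645 by limma-trend), and without WT replicate 3 it was -0.11 (unadjusted p = 0.241). Vip ranged from 1.64 to 3.07 CPM. Gcg, which yields glucagon-like peptide 1 in the solitary tract nucleus, was at 0.0473, 0.0432 and 0.0288 CPM in WT, all under the floor, and at 0.260, 0.0001 (the minimum of the table) and 0.342 CPM in those labelled Rag1-/-. It was thus above the floor only in replicates 1 and 3 with that label. The library without Gcg reads, replicate 2, was also the lowest of the 6 in Hoxa5, Hoxb5, Hoxb3, Hoxa3 and Hoxa2, and the part of this in the Gcg values was not tested.

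Grp, a bombesin-like peptide gene, was at 3.73, 2.80 and 2.59 CPM in WT libraries and at 3.26, 3.58 and 4.07 CPM in those labelled Rag1-/-. Its relative Nmb ranged from 0.854 to 1.79 CPM. The neuromedin genes Nmu and Nms were at the limit of detection. Nmu was at 0.0001, 0.0647 and 0.0288 CPM in WT and 0.202, 0.0318 and 0.114 CPM in those labelled Rag1-/-. Nms was above the floor in 1 library, WT replicate 3, at 0.173 CPM, and was at 0.0473 and 0.0216 CPM in the other WT libraries and at 0.0001, 0.0635 and 0.0570 CPM in those labelled Rag1-/-. Neither was tested.

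The hypothalamic peptides had 1 or 2 libraries far above the rest. Their summed level was 47.5, 42.3 and 243 CPM in WT and 32.5, 134 and 43.7 CPM in those labelled Rag1-/-. Avp, the vasopressin precursor, was at 2.92, 1.44 and 85.2 CPM in WT libraries and at 0.458, 4.61 and 0.562 CPM in those labelled Rag1-/-. WT replicate 3 was 18.5 times the next highest library. Oxt, the oxytocin precursor and the neighbour of Avp on chromosome 2, was at 0.688, 0.647 and 31.8 CPM in WT libraries and at 0.0334 (under the floor), 2.14 and 0.178 CPM in those labelled Rag1-/-, with WT replicate 3 at 14.9 times the next. In both genes replicate 2 was the highest of the libraries labelled Rag1-/-.

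The log2 fold change of Avp was -2.61 (standard error 1.40, unadjusted p = 0.0962, adjusted p = 0.4999 by limma-trend) and that of Oxt was -2.61 (standard error 1.49, unadjusted p = 0.115, adjusted p = 0.522). Without WT replicate 3, the only WT library with low Xist, they were -0.84 (unadjusted p = 0.331 by limma-trend) and -0.81 (unadjusted p = 0.431). With the term for high Xist, which sets the libraries labelled Rag1-/- against WT replicate 3 alone, they were -6.15 and -6.19. Without replicate 2 labelled Rag1-/- they were -3.60 (unadjusted p = 0.0401) and -3.79 (unadjusted p = 0.0356). When both of these libraries were left out, a choice made after the values were seen, the remaining WT values of 2.92 and 1.44 CPM for Avp and 0.688 and 0.647 CPM for Oxt lay above the remaining 0.458 and 0.562 CPM and 0.0334 and 0.178 CPM, with log2 fold changes of -1.83 (unadjusted p = 0.000397, adjusted p = 0.124 by limma-trend) and -1.99 (unadjusted p = 0.0011, adjusted p = 0.196). Both WT libraries in that fit had high Xist and both others low Xist, so genotype and this split cannot be told apart there. With these libraries 9 members had an unadjusted p of at most 0.05, 5 lower and 4 higher, against 9.22% and 2.5% of all tested genes. None had an adjusted p under 0.05.

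Hcrt, the orexin precursor, was at 12.2, 12.4 and 47.0 CPM in WT libraries and at 12.6, 49.1 and 16.4 CPM in those labelled Rag1-/-. Pmch, which encodes melanin-concentrating hormone, was at 26.7, 24.01 and 67.1 CPM in WT libraries and at 16.8, 71.6 and 22.4 CPM in those labelled Rag1-/-. For both genes WT replicate 3 and replicate 2 labelled Rag1-/- were the 2 high libraries, and the other 4 lay close together. These 2 libraries were also the highest in the cerebellar marker sum (798 and 349 CPM) and the lowest in the brainstem marker sum (57.7 and 53.8 CPM), and they were the highest in the forebrain marker sum, which was 11.2, 9.31 and 16.8 CPM in WT and 7.09, 16.0 and 10.2 CPM under the other label. The hypothalamic marker sum was high in WT replicate 3 (22.7 CPM) and not in the other (5.13 CPM). The part of tissue from neighbouring regions in these levels was not tested. Trh, the precursor of thyrotropin-releasing hormone, which caudal raphe neurons also make, was at 4.96, 3.79 and 12.01 CPM in WT libraries and at 2.54, 7.10 and 4.13 CPM in those labelled Rag1-/-, with the same 2 libraries on top. The log2 fold change of Trh was -0.52, and it was -0.04 without WT replicate 3, -0.89 without replicate 2 labelled Rag1-/- and -0.41 without both.

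**Figure D4:**
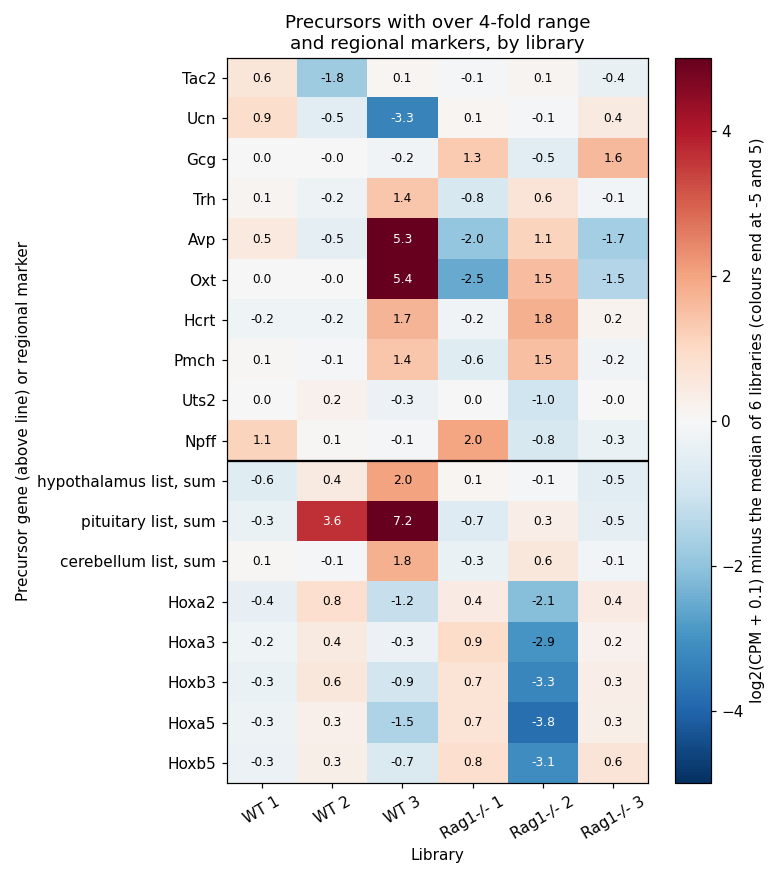
Difference of log2(CPM + 0.1) from the median of the 6 libraries, as printed in each cell, for the 10 tested members with an over 4-fold range (above the line) and for regional markers (below it). WT replicate 3 is high in Avp, Oxt, Hcrt, Pmch and all 3 marker sums and low in Ucn, and replicate 2 labelled Rag1-/- is high in Hcrt and Pmch and low in the Hox genes.

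The remaining ligands were rare. Uts2b, a urotensin-related gene, was at 0.212, 0.323 and 0.144 CPM in WT libraries and at 0.347, 0.190 and 0.399 CPM in those labelled Rag1-/-. Uts2, the urotensin 2 gene of cholinergic brainstem and spinal neurons, was at 0.236, 0.280 and 0.173 CPM and at 0.231, 0.0635 and 0.228 CPM, the low value being under the floor of that library. Npb, which encodes neuropeptide B, was at 1.37, 1.90 and 1.98 CPM in WT libraries and at 2.40, 1.84 and 2.70 CPM in those labelled Rag1-/- (log2 fold change 0.38, standard error 0.19, unadjusted p = 0.0810 by limma-trend). Nps, the neuropeptide S precursor made by a small cell group near the locus coeruleus, ranged from 0.302 to 1.01 CPM. It had the smallest p of the members above 0 (log2 fold change 0.67, standard error 0.30, unadjusted p = 0.0528 by limma-trend, adjusted p = 0.436), and with a pseudocount of 1 and both other scalings its unadjusted p was 0.0493, 0.0252 and 0.0417. Its unadjusted p was 0.628 with the term for high Xist (log2 fold change 0.19 by limma-trend), and with 1 library left out it lay between 0.0135 without WT replicate 3 (0.91) and 0.177 without replicate 2 labelled Rag1-/- (0.49). Npff, a peptide gene of the medulla and spinal cord that modulates opioid action, was at 0.637, 0.259 and 0.230 CPM in WT libraries and at 1.24, 0.0951 and 0.171 CPM in those labelled Rag1-/-, with both extremes under that label and the lowest at the floor. Prlh, the prolactin-releasing peptide gene of caudal medullary neurons, was at 0.0945, 0.0001 and 0.0001 CPM in WT libraries and at 0.144, 0.0001 and 0.114 CPM in those labelled Rag1-/-, so that it exceeded the floor in 3 libraries and was not tested.

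Peptide genes varied more between animals of 1 genotype than most genes of like level. The SD of log2(CPM + 0.1) within genotype had a median of 0.33 over the 35 members and of 0.10 over all tested genes. With the genes divided by mean level (0.1 to 1, 1 to 10, 10 to 100 and above 100 CPM), 32 of the 35 members had an SD above the median of all genes in their range, and 17 had one above the 90th percentile. The 3 at or below the median were Pnoc, Scg2 and Scg5. Granins had a median SD of 0.07 and the other 29 precursors one of 0.41. The lists of regional markers had larger ones, 1.26 for brainstem neurons, 1.22 for the cerebellum, 0.80 for the hypothalamus and 0.74 for the forebrain. Genes of neurons in general, such as Snap25, had one of 0.11. A spread above that of most genes was thus not particular to peptide genes. The highest library was over 4 times the lowest for 10 of 35 members (28.6%, against 4.33% of all tested genes), and for 7 of the 29 members with a mean of at least 1 CPM (24.1%, against 0.677%). These 7 were Tac2, Ucn, Trh, Avp, Oxt, Hcrt and Pmch. Without WT replicate 3 and replicate 2 labelled Rag1-/-, a choice made after the values were seen, these counts were 5 of 35 (14.3%, against 2.35% of all genes) and 3 of 29 (Tac2, Avp and Oxt; 10.3%, against 0.271%), and 13 members were above the 90th percentile. Without WT replicate 3 alone they were 8, 5 and 14, and without replicate 2 labelled Rag1-/- alone 7, 5 and 16. The members share libraries and dissections, so these counts are descriptions with no test.

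**Figure D5:**
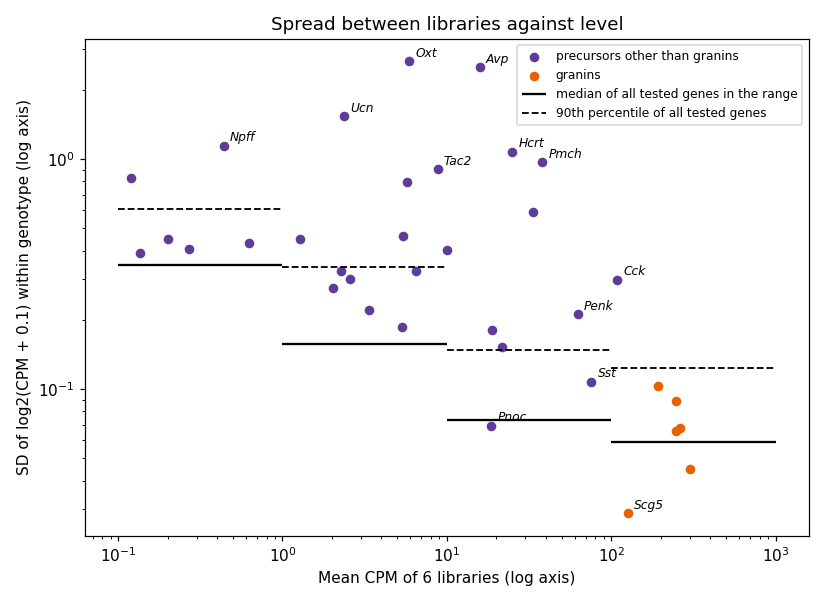
SD of log2(CPM + 0.1) within genotype against mean CPM for the 35 tested members, both axes log, with solid and dashed lines at the median and the 90th percentile of all tested genes in 4 ranges of level. Oxt, Avp and Ucn lie highest, and the granins (orange) lie near the median line of all genes, with Scg2 and Scg5 under it.

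None of the listed enzymes and vesicle proteins that handle the precursors had an adjusted p under 0.05 in the main fit by limma-trend. Of 14 processing enzymes, 1 was lower at an unadjusted p of at most 0.05 and none was higher, against 9.29% and 2.27% of all tested genes, and the list's median log2 fold change was -0.10 against -0.051 over all tested genes. The list's share lay near that of all genes. The count was 2 lower without WT replicate 1 (7.09% of all genes), 3 lower and 1 higher without WT replicate 2 (9.73% and 2.35%) and 5 lower with the term for high Xist (12.3%). With each of the other scalings it was 1 lower and 1 higher, against 3.82% and 5.1% of all genes after quantile normalization and 4.13% and 5.05% after median-of-ratios rescaling. The gene was Pam, the amidating enzyme of most neuropeptides, at 162, 155 and 172 CPM in WT libraries and at 121, 146 and 142 CPM in those labelled Rag1-/- (log2 fold change -0.26, standard error 0.07, unadjusted p = 0.00593, adjusted p = 0.335 by limma-trend). Its groups did not overlap. Cpe, the carboxypeptidase that trims the cut peptides and the most abundant gene of the list in CPM, was at 1797, 1495 and 1605 CPM and at 1515, 1794 and 1514 CPM, with full overlap. Of 14 dense-core vesicle genes, 3 were lower and none higher, against the same 9.29% and 2.27% of all tested genes (median log2 fold change -0.09). The number lower was also 3 after quantile normalization (3.82% of all genes) and after median-of-ratios rescaling (4.13%), and it was 2 without the trend (7.67%). Syt4, a synaptotagmin of peptide vesicles, was at 139, 132 and 133 CPM in WT libraries and at 114, 122 and 115 CPM in those labelled Rag1-/- (log2 fold change -0.20, standard error 0.04, unadjusted p = 0.00135, adjusted p = 0.265 by limma-trend). Vps13a, a lipid transfer protein, was at 26.3, 25.996 and 26.4 CPM against 23.0, 24.3 and 22.5 CPM, and Baiap3, a priming factor of dense-core vesicles, at 97.4, 94.9 and 131 CPM against 80.7, 94.9 and 81.1 CPM. Without WT replicate 2 the number of lower vesicle genes was 8, against 9.73% of all genes in that fit, and with the term for high Xist it was 6, against 12.3%, and 1 gene was higher, against 3.96%. In that last fit the difference of Baiap3 was -0.62 on the log2 scale. By construction it sets the libraries labelled Rag1-/- against WT replicate 3 alone, the highest library for Baiap3. Dnajc5, the most abundant of this list in CPM, had a log2 fold change of -0.08 (standard error 0.04, unadjusted p = 0.0771 by limma-trend).

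Of 46 tested peptide receptors, 10 were lower at an unadjusted p of at most 0.05 and 1 was higher, against 9.29% and 2.27% of all tested genes. The median log2 fold change was -0.19, and none had an adjusted p under 0.05. The lower receptors were Tacr3 (neurokinin B), Oprk1 and Oprl1 (dynorphin and nociceptin), Npy5r, Galr1 and Galr3 (galanin), Crhr1, Glp1r, Oxtr and Gpr83. Glp1r was at 1.68, 1.92 and 2.24 CPM in WT libraries and at 1.36, 1.08 and 1.25 CPM in those labelled Rag1-/- (log2 fold change -0.62, standard error 0.17, unadjusted p = 0.00503, adjusted p = 0.331 by limma-trend). Crhr1, the main receptor of Crh and Ucn peptides, was at 13.3, 15.3 and 16.2 CPM and at 11.7, 9.60 and 12.8 CPM (log2 fold change -0.40, standard error 0.12). The groups did not overlap in either gene. Oxtr was at 3.96, 3.79 and 4.34 CPM in WT libraries and at 3.29, 3.17 and 3.39 CPM in those labelled Rag1-/- (log2 fold change -0.29, standard error 0.11), also without overlap, and WT replicate 3 was its highest library by a small margin. The log2 fold changes of the other lower receptors lay between -0.84 for Galr3 and -0.12 for Oprl1. Ntsr2, a neurotensin receptor that astrocytes express, was the higher one, at 218, 214 and 231 CPM in WT libraries and at 270, 258 and 239 CPM in those labelled Rag1-/- (log2 fold change 0.21, standard error 0.05, unadjusted p = 0.00409, adjusted p = 0.319 by limma-trend). Adcyap1r1, the PACAP receptor and the most abundant of the list in CPM, was at 267 to 280 CPM in WT and 251 to 265 CPM in those labelled Rag1-/- (unadjusted p = 0.0772 by limma-trend). WT replicate 3 was the highest library for 22 of the 47 receptor genes in the table and for 28.7% of all tested genes, and without it 9 receptors were lower and 1 higher (9.31% and 2.33% of all genes). With quantile normalization 5 receptors were lower and 1 higher (3.82% and 5.1% of all genes), with median-of-ratios rescaling 7 and 1 (4.13% and 5.05%), and without replicate 1 labelled Rag1-/- 6 and 1 (5.18% and 1.45%).

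Of 16 peptidases, which end peptide signals outside the cell or degrade peptides within it, 5 were lower (Ece1, Ece2, Lnpep, Ide and Ace) and none was higher, against 9.29% and 2.27% of all tested genes, with a median log2 fold change of -0.13. The number was 3 after quantile normalization (3.82% of all genes lower), after median-of-ratios rescaling (4.13%), without the trend (7.67%) and without replicate 1 labelled Rag1-/- (5.18%). Ace, the angiotensin-converting enzyme, was at 37.8, 41.1 and 37.2 CPM in WT libraries and at 32.1, 34.3 and 32.6 CPM in those labelled Rag1-/- (log2 fold change -0.23, standard error 0.06, unadjusted p = 0.00288, adjusted p = 0.312 by limma-trend). Ide, the insulin-degrading enzyme, was at 73.7, 40.6 and 74.7 CPM in WT libraries and at 38.1, 35.1 and 37.7 CPM in those labelled Rag1-/- (log2 fold change -0.71, standard error 0.20, unadjusted p = 0.00715). WT replicate 2 was close to the libraries labelled Rag1-/-, and the other WT libraries were higher than all the rest. Dpp8, the most abundant of the list in CPM, had a log2 fold change of -0.03 (standard error 0.04). Without WT replicate 2, the log2 fold change of Ide was -1.003 (standard error 0.06, adjusted p = 0.000382 by limma-trend), the only adjusted p under 0.05 among these 4 lists in the fits that left out 1 library.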

How the data were processed

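Total RNA of 6 brainstems was sequenced on an Illumina HiSeq. Per the study's methods, reads were aligned with STAR 2.5.3a to mm10, and gene counts on RefSeq transcripts were made in Partek Flow. The authors deposited them as CPM (counts scaled to library size), to which an offset of 0.0001 was added. Any filter on genes before that is not stated. Since 85.2% to 86.7% of low values lay within 0.1 read of a whole number of reads, counts were not rebuilt and no count model was used. The pseudocount of 0.1 makes a log2 fold change understate the change of low genes.

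The filter was a mean of 0.1 CPM or more, and log2(CPM + 0.1) was compared with limma-trend (limma 3.58.1, R 4.3.3) over both genotypes, with Benjamini-Hochberg adjustment over all 16762 genes, since the study names this model. The fit was tested on simulated data. Single genes also had an exact two-sided permutation test. Levels per kilobase used the length of the principal GENCODE M21 transcript, and promoters came from RefSeq. From the list of brainstem neuron markers, 1 gene is not reported here and was left out of its sum. Alternatives were other pseudocounts, filters, scalings and variance models, a replicate block, a term for libraries with Xist over 100 CPM, and leaving out libraries. The members, gene lists and alternatives were chosen with earlier results of these data known. Every member was named. Values in each library were given for members with an unadjusted p of at most 0.05 or no overlap, the 10 highest per kilobase, the highest of each peptide family and those over a 4-fold range, and for wider lists the genes with such a p and the most abundant were named, of which those with values were picked after these were seen. Same-numbered replicates did not deviate together (correlations 0.093, -0.22 and -0.018 over genes), and the main fit does not pair them. Whether they shared a litter, day or batch was not tested.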

Additional observations from a re-analysis of the deposited data

How the results depend on the processing

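The number of members with an adjusted p under 0.05 was 0 in the main fit and in every alternative but the term for libraries with Xist over 100 CPM, in which it was 2 (Avp, adjusted p = 0.0477, and Ucn, adjusted p = 0.0301, both by limma-trend). By construction that fit sets the libraries labelled Rag1-/- against WT replicate 3 alone. The number of all tested genes with an adjusted p under 0.05, which was 8, was 4 with a pseudocount of 0.01, with no filter and with a mean of at least 1 CPM, 5 with quantile normalization, 2 without the trend, 134 with the Xist term, 24 with WT replicate 3 and replicate 2 labelled Rag1-/- both left out, and 2 to 24 with 1 library left out (24 without WT replicate 3, 5 without replicate 2 and 2 without replicate 1 or 3 labelled Rag1-/-). The number of members with an unadjusted p of at most 0.05, which was 2, was 4 with quantile normalization (3.82% of all genes lower and 5.1% higher), 11 with the Xist term (12.3% and 3.96%), 9 with both libraries left out (9.22% and 2.5%) and 1 to 8 with 1 left out (5.18% to 9.73% and 1.45% to 2.35%). The number of members lower in every library labelled Rag1-/- was 2, but 0 with median-of-ratios rescaling (7.37% of all genes), 7 with both libraries left out (32.5%) and 3 to 6 with 1 left out (19.1% to 23.5%, the 6 without replicate 2 labelled Rag1-/-). The number higher in every such library was 0, but 2 with quantile normalization (8.71% of all genes), 1 with median-of-ratios rescaling (8.42%), 8 with both left out (11.8%) and 1 to 4 with 1 left out (6.01% to 8.09%). Fewer libraries make a lack of overlap more frequent by construction, and the cause of the other changes was not tested. These 2 counts do not use the pseudocount, variance model, block or Xist term. The median log2 fold change of the members stayed between -0.063 and 0.049.

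With the replicate block, 3 of all tested genes had an adjusted p under 0.05 and 1 member, Vgf, had an unadjusted p of at most 0.05 (0.0206; 6.59% of all genes were lower and 1.52% higher at such a p), that of Scg2 being 0.058. Whether same-numbered animals shared a batch was not tested.

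Of 309 single-gene values under the other settings, 279 kept their sign and side of an unadjusted p of 0.05 and 12 reversed. The log2 fold change of Npff was 0.061 with a pseudocount of 1. With quantile normalization it was 0.021 for Sst, 0.11 for Vip and 0.015 for Npff, and with median-of-ratios rescaling 0.026 for Sst and 0.042 for Vip. With the Xist term it was -0.19 for Tac2, -0.038 for Cort, 0.43 for Vip, -1.11 for Hcrt, 0.33 for Npff and -0.047 for Scg3. With both libraries left out it was 0.11 for Penk, -0.036 for Pnoc, 0.0090 for Npy, 0.064 for Sst, -0.042 for Nts, 0.069 for Gal, -0.34 for Cartpt, -0.16 for Nmb and 0.23 for Npff. Of 208 values with 1 library left out, 31 reversed, and the ranges of these genes were -0.31 to 0.45 for Cartpt, -0.14 to 0.39 for Cort, -0.42 to 0.81 for Hcrt, -0.18 to 0.27 for Nmb, -0.95 to 0.44 for Npff, -0.44 to 0.079 for Npy, -0.025 to 0.23 for Nts, -0.16 to 0.10 for Penk, -0.85 to 0.24 for Pmch, -0.024 to 0.064 for Pnoc, -0.012 to 0.097 for Scg3, -0.062 to 0.064 for Sst, -0.46 to 0.74 for Tac2, -0.036 to 2.08 for Ucn, -0.50 to 0.013 for Uts2 and -0.22 to 0.22 for Vip. Depth limits Gcg, Nmu, Nms, Prlh, Cort, Uts2, Npff and Oxt, which were at or under the level of 3 reads in at least 1 library.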

Other observations

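In WT replicate 3, 113 genes, among them the list members Avp and Oxt, were over 2 times the next highest library, against 5 to 18 genes in each of the other 5 libraries. Besides these and the pituitary genes already given, these genes, chosen after their values were seen, included Nr5a1, a factor of the ventromedial hypothalamus, at 2.07 CPM against at most 0.151 CPM elsewhere, and Fezf1 at 2.73 CPM against at most 0.349 CPM. Rln3, the relaxin 3 precursor of the nucleus incertus of the pons and not on the list, was at 4.01, 5.38 and 1.21 CPM in WT libraries and at 11.5, 5.42 and 0.968 CPM in those labelled Rag1-/-. Tph2, the serotonin synthesis enzyme of raphe neurons, was at 30.7, 29.6 and 10.002 CPM and at 58.0, 22.7 and 12.3 CPM. WT replicate 3 and replicate 3 labelled Rag1-/- were the 2 lowest libraries for both genes.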
